A study of Mus musculus with 35 samples.

Results

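The RNA of antigen-experienced CD8 T cells taken from the brains of aged male mice and left unstimulated was set against that of the same kind of cell taken from the spleens of aged male mice and stimulated. The labels place 11 of the 35 libraries of the series in this comparison, 6 from resting brain (replicates 7 to 12) and 5 from stimulated spleen (replicates 36 to 40), among 7 groups in all. It asks which genes of T cell activation the resting brain cells carried at the level of stimulated spleen cells, and which they carried at a lower level. All mice were C57BL/6, their ages are labelled Aged or Young alone, and the sort took CD3e+CD8+CD44hiCD62Llo cells, which carry the surface markers of effector memory. PMA (a phorbol ester) together with ionomycin (which lets calcium in) was given to the stimulated spleen cells for 2 h and to no resting cell. Whether resting cells were incubated for as long is not stated in the labels. Unstimulated spleen cells of aged males (n = 5) gave the level before stimulation, and resting brain cells of young males (n = 5) and aged females (n = 5) gave levels in other brains. The labels do not say whether a library holds cells of 1 mouse or of a pool, nor that replicates are of different animals. The p-values thus rest on the spread among these libraries alone, and that spread may be technical.

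PMA stands in for diacylglycerol and switches on protein kinase C, which feeds the MAP kinase and NF-kB pathways, while ionomycin raises calcium and so activates calcineurin and NFAT. Immediate early genes such as Fos, Egr1 and Nr4a1 answer these signals without new protein synthesis, and effector genes such as Ifng and Tnf and inhibitors of the same pathways follow. Memory CD8 T cells that stay in a tissue are known to carry adhesion molecules and regulators of their own.

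Resting brain cells carried one set of activation genes at about the level of stimulated spleen cells, among them the AP-1 gene Fosl2 and the MAP kinase phosphatase genes Dusp1 and Dusp5. A second set, with the Nr4a receptors, Egr1, Fos and Tnfaip3, lay between unstimulated and stimulated spleen. The last set, with Myc, Nfkbia, Pim1, Ccl3 and Il21, lay far below stimulated spleen and did not differ past the threshold from unstimulated spleen where it was tested there. Of 171 activation genes tested 28 were lower in resting brain, 16 were held within 2-fold and 2 were higher, and 125 could be placed in none of these. None of the 16 stayed within 2-fold under all 4 ways of scaling the libraries. Dusp5 stayed within it in only 3 of 11 runs that each left out 1 library. Some held genes, among them the cytokine receptor gene Il2rg, differed little between stimulated and unstimulated spleen. For these a held level says little about activation.

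Library totals were 10.3 to 24.97 M counts in resting brain and 6.75 to 11.2 M in stimulated spleen, so that depth was the greater in brain (exact permutation test, two-sided, p = 0.013). Nevertheless 8979 to 10756 genes had a count in the brain libraries, against 13729 to 14689 in the stimulated spleen libraries, without overlap (exact permutation test, p = 0.0043, the smallest that 6 against 5 libraries allow). Brain libraries were also less alike than spleen libraries, with a median Spearman correlation across genes of 0.601 between brain replicates and of 0.878 between stimulated spleen replicates. Mitochondrial transcripts took 9.88% ± 0.456 of brain counts and 16.3% ± 2.53 of stimulated spleen counts (SD, n = 6 and 5). Sample titles of the brain and spleen libraries compared here follow different formats. Tissue, any handling that goes with the title format and this sparseness cannot be told apart. The 13 CD8 T cell identity genes summed to 5926 to 10010.0 CPM (counts scaled to the size of the library) in brain and to 3955 to 5421 CPM in stimulated spleen, and each was detected in both tissues. Of these genes Cd8a, Cd3g and Thy1 were called higher in brain, with log2 fold changes of 1.99, 1.46 and 1.24 by the test described next. In bulk RNA, fewer cells of a type and less RNA per cell cannot be told apart.

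Genes were compared with edgeR's quasi-likelihood test on TMM-scaled counts, with Benjamini-Hochberg adjustment over all 9943 genes tested and a threshold of 0.05. A log2 fold change is resting brain over stimulated spleen unless another pair is named. A gene was taken to be held within 2-fold where the 95% interval of its log2 fold change lay wholly between -1 and 1, because a missed threshold alone does not show equal levels. Of all genes tested, 169 were higher in resting brain (1.7%), 235 were lower (2.36%) and 350 were held within 2-fold (3.52%). These classes overlap, as 5 genes were both called and held within 2-fold. Among 181 listed activation genes 171 were tested, of which 2 were higher (1.17%), 28 were lower (16.4%), 16 were held within 2-fold (9.36%) and 125 were undecided. Their median log2 fold change was -0.63, beside 0.42 over all genes tested. In spleen, where 11133 genes were tested, stimulated libraries were higher than unstimulated ones for 1120 genes (10.1%) and lower for 1023 (9.19%), and 109 of the 172 tested activation genes were higher. Resting brain against unstimulated spleen gave 358 higher genes (3.34%) and 346 lower (3.23%) of 10704, and 35 activation genes were higher and 0 lower. These 3 comparisons share libraries, and their values are given side by side.

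The scale on which libraries are compared moved these values. With DESeq2's size factors the median gene had a log2 fold change of 0.88, beside 0.42 on the TMM scale, and there 549 genes were higher and 214 lower. None of the 16 held activation genes stayed within 2-fold under all 4 scalings tried, while all 16 stayed within 4-fold under each, with estimates between -0.90 and 0.83.

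The promoters of 2 held genes, Dusp1 and Dusp5, and of the lower gene Nfkbia are shown because each holds a motif through which the pathways above are known to act; they were chosen after their motifs and values were seen. Each is the window from 250 bases before to 50 bases after a RefSeq gene start on GRCm38.p6, written along the gene's strand, with motif matches on either strand in capitals. The Dusp1 start used lies 53656 bases from the start of the GENCODE entry that gave the gene positions below. Those of Dusp5 and Nfkbia lie 36 and 0 bases from it. The Dusp1 window (chr17:26508423-26508722, minus strand) holds the cyclic AMP response element TGACGTCA, the Dusp5 window (chr19:53528895-53529194, plus strand) a pair of adjoining CArG boxes, the motif of serum response factor, and the Nfkbia window (chr12:55492598-55492897, minus strand) a kB motif next to the start.
Dusp1: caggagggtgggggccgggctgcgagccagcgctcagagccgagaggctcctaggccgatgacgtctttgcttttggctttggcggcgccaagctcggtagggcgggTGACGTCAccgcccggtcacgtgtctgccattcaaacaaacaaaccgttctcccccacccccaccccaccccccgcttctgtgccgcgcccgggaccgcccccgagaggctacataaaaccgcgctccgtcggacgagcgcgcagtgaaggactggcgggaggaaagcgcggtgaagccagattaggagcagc
Dusp5: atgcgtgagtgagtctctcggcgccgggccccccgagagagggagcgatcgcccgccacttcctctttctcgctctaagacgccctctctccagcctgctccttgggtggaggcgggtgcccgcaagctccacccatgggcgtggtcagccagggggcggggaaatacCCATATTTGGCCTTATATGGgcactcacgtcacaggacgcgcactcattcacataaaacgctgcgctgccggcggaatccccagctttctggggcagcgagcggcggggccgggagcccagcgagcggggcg
Nfkbia: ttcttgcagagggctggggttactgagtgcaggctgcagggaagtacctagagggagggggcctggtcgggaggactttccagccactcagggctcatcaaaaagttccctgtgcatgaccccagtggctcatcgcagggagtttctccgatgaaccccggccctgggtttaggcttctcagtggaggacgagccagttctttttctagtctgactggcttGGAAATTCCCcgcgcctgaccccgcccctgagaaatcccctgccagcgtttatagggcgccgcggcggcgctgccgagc
Over all 32851 RefSeq windows 1.79% held TGACGTCA, 1.63% a CArG box, 8.46% a kB motif and 7.81% the AP-1 motif TGANTCA. Among activation genes with a window, a kB motif was in 2 of 14 held and 7 of 23 lower ones. TGACGTCA was in 2 held and 1 lower, a CArG box in 2 held and 1 lower, and TGANTCA in 1 held and 2 lower. Among the 97 undecided ones a kB motif was in 15, TGANTCA in 7, a CArG box in 2 and TGACGTCA in 1. Some counted windows lie far from the GENCODE start, such as those of Nr4a1 (12577 bases) and Ldha (4329 bases). A match is a description of these letters and not evidence of a bound site.

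**Figure D1:**
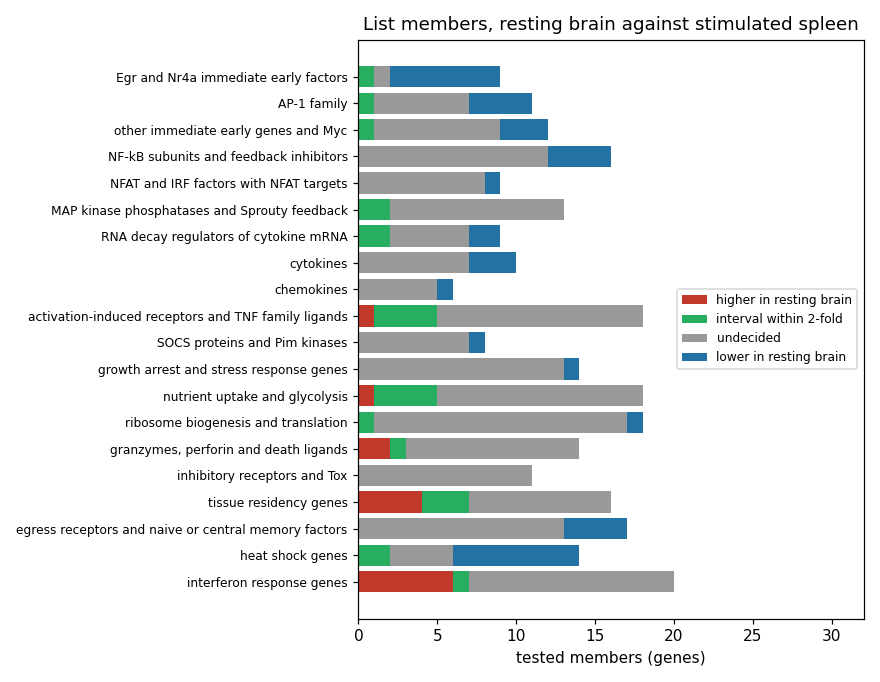
Tested members of each activation and context list (x axis, number of genes) by the outcome of resting brain against stimulated spleen. The Egr and Nr4a list has 7 of 9 tested members lower in resting brain, while the list of MAP kinase phosphatases and Sprouty inhibitors has none lower and 2 of 13 held within 2-fold, and the interferon list has 6 of 20 higher. Of all genes tested 2.36% were lower, 3.52% held and 1.7% higher.

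The AP-1 factors, which bind DNA as pairs of Fos and Jun family proteins, divided between a held member and lower ones. Fosl2, which encodes the Fos family protein Fra-2 (chr5:32135801-32157842, plus strand, mm10 as all gene positions here), had 312 to 751 CPM (median 435) in resting brain, against 436, 574, 260.3, 306 and 853 CPM in stimulated spleen and 3.91 to 9.15 CPM in unstimulated spleen. All 6 brain libraries lay inside the range of the stimulated spleen libraries and far above the unstimulated ones. The log2 fold change was -0.04 (SE 0.32), with an interval from -0.72 to 0.65, and Fosl2 was within 2-fold in each of the 11 runs without 1 library. With limma's voom test its estimate was 0.12 and the interval passed the 2-fold limit. Against unstimulated spleen the same brain libraries gave 6.13 (edgeR adjusted p = 1.6e-07). Junb, a Jun protein that restrains proliferation, had 189 to 554 CPM (median 337) in brain and 485, 566, 355, 381 and 676 CPM in stimulated spleen, with overlapping groups and an interval from -1.18 to 0.13 that left it undecided.

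Lower were Fos, Fosb, Fosl1 and Jun, 4 of the 11 AP-1 genes tested, beside 2.36% of all genes tested. Fos had 134 to 320.0 CPM (median 202) in resting brain, against 984, 1014, 2117, 1623 and 1384 CPM in stimulated spleen and at most 20.1 CPM in unstimulated spleen. The groups did not overlap, the log2 fold change was -2.72 (SE 0.27, edgeR adjusted p = 5.9e-05), and the brain libraries nonetheless stood above every unstimulated spleen library. Fosb followed the same order, with 63.8 to 314 CPM (median 126) in brain, 913, 980.4, 695, 739 and 1391 CPM in stimulated spleen and 7.66 to 13.6 CPM in unstimulated spleen. It had a log2 fold change of -2.56 (SE 0.41, edgeR adjusted p = 0.0023). Fosl1, which encodes Fra-1, had at most 0.442 CPM in any brain library, against 14.9, 15.4, 7.19, 4.10 and 30.1 CPM in stimulated spleen (log2 fold change -7.13, SE 1.54, edgeR adjusted p = 0.012). Jun averaged 236 ± 114 CPM in brain and 631 ± 84.7 CPM in stimulated spleen (SD, n = 6 and 5), a log2 fold change of -1.42 (SE 0.32, edgeR adjusted p = 0.015). The Jun call was lost without stimulated spleen replicate 37 (-1.32, adjusted p = 0.077) or 40 (-1.36, adjusted p = 0.057), or with DESeq2's size factors (-0.92, adjusted p = 0.13).

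The MAP kinase phosphatases, which switch off the kinases that PMA activates, and the Sprouty and Spred inhibitors of the same pathway gave no lower member among 13 tested. Over all genes tested 2.36% were lower, so that none of 13 is near that share. Dusp5, a nuclear phosphatase of ERK (chr19:53529109-53542431, plus strand), had 198 to 354 CPM (median 232) in resting brain, against 200.4, 255, 125, 141 and 284 CPM in stimulated spleen and 7.76 to 13.2 CPM in unstimulated spleen. Of the brain libraries 4 lay inside the stimulated range and the other two above it. Its log2 fold change was 0.33 (SE 0.30), but the upper end of its interval, 0.96, was close to the limit, and Dusp5 left the 2-fold range in 8 of the 11 runs without 1 library, with estimates between 0.32 and 0.51. Dusp1, a phosphatase of several MAP kinases, had 164 to 277 CPM (median 216) in brain, 173, 196, 314, 313 and 222 CPM in stimulated spleen and 21.6 to 28.8 CPM in unstimulated spleen. Its log2 fold change was -0.16 (SE 0.27), and it was within 2-fold in all 11 such runs but not with voom. Against unstimulated spleen Dusp1 was at 3.09 (edgeR adjusted p = 2.2e-05). Dusp2 overlapped too, at 43.9 to 192 CPM (median 139) in brain and 151, 197, 118, 96.8 and 241 CPM in stimulated spleen, with an interval from -1.23 to 0.47.

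**Figure D2:**
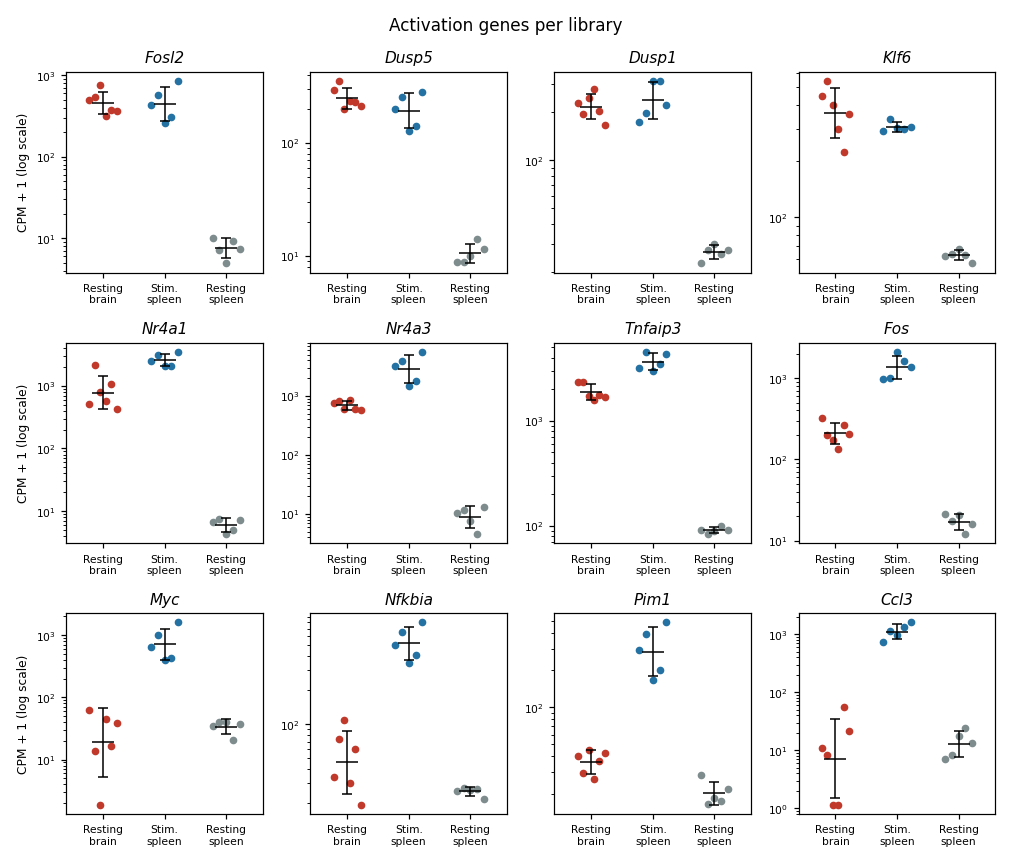
CPM + 1 on a log scale for 12 activation genes in resting brain (n = 6), stimulated spleen (n = 5) and unstimulated spleen (n = 5) of aged males; points are libraries, bars the geometric mean and 1 SD on the log scale. The top row (Fosl2, Dusp5, Dusp1, Klf6) shows brain at the stimulated level, the middle row (Nr4a1, Nr4a3, Tnfaip3, Fos) shows brain between the spleen groups, and the bottom row (Myc, Nfkbia, Pim1, Ccl3) shows brain far below stimulated spleen.

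The held genes Klf6, Odc1, Zfp36l2, Tnfrsf1b and Bhlhe40 also stood well above unstimulated spleen. Klf6, a zinc finger factor of the immediate early class, had 223 to 541 CPM (median 379.9) in resting brain, against 289, 336, 300.1, 298 and 305 CPM in stimulated spleen and 55.5 to 66.2 CPM in unstimulated spleen. The difference from stimulated spleen was 0.31 (SE 0.25) on the log2 scale, and without stimulated spleen replicate 37 it was 0.38, where the interval passed the 2-fold limit. Odc1, the rate-limiting enzyme of polyamine synthesis, had 250.2 to 707 CPM (median 485) in brain and 544, 579, 289, 425 and 634 CPM in stimulated spleen, with 53.8 to 92.1 CPM in unstimulated spleen and a log2 fold change of -0.06 (SE 0.29). Zfp36l2, an RNA-binding protein that promotes decay of AU-rich mRNA, had 263 to 566 CPM (median 385) in brain and 296, 450.4, 253, 287 and 419 CPM in stimulated spleen, and its log2 fold change was 0.21 (SE 0.27). Tnfrsf1b, the second receptor for tumour necrosis factor, had 115 to 412 CPM (median 285) in brain and 288, 349.5, 156, 177 and 462 CPM in stimulated spleen, with an interval from -0.88 to 0.69. In 5 of 11 runs without 1 library it passed the limit, at -0.26 to -0.16. Against unstimulated spleen these 4 genes had log2 fold changes of 2.62, 2.65, 2.18 and 2.47, each past the edgeR threshold. Bhlhe40 is a factor of cytokine production counted here among tissue residency genes. It had 320.2 to 582 CPM (median 462) in brain, against 494, 612, 550.1, 689.9 and 618 CPM in stimulated spleen and 28.7 to 66.6 CPM in unstimulated spleen, with a log2 fold change of -0.42 (SE 0.22). The interval ran from -0.88 to 0.05, and without stimulated spleen replicate 36, at -0.48, it passed the limit.

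The other held activation genes had log2 fold changes of at most 1.28, that of Cd28, for stimulated over unstimulated spleen. Il2rg, the common cytokine receptor chain, had 209.6 to 337 CPM (median 259) in brain, 247, 342, 277, 239 and 323 CPM in stimulated spleen and 231 to 267 CPM in unstimulated spleen. Cd44, the memory marker used in the sort, Aldoa, Gapdh and Ldha of glycolysis, and Rc3h1, which encodes the RNA-binding protein Roquin-1, were held in the same way, with log2 fold changes of -0.04, 0.31, 0.17, -0.07 and 0.12. The remaining held members were Nab1, a corepressor of Egr factors (-0.22), Cd28, a costimulatory receptor (-0.23), and Ncl, the nucleolar protein nucleolin (-0.47). Nab1, Cd28, Ldha and Rc3h1 passed the 2-fold limit in 3 to 7 of the 11 runs without 1 library.

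The orphan nuclear receptors of the Nr4a family, early targets of calcium and antigen receptor signals, were all lower in resting brain than in stimulated spleen and higher than in unstimulated spleen. Nr4a3 (chr4:48045153-48086447, plus strand) had 584 to 867 CPM (median 677) in brain, against 3256, 3932, 1451, 1818 and 5639 CPM in stimulated spleen and 3.53 to 12.04 CPM in unstimulated spleen. The brain libraries formed a narrow band below every stimulated library, and the log2 fold change was -2.20 (SE 0.29, edgeR adjusted p = 0.00056), while limma's voom test gave -1.87 (adjusted p = 0.25). Nr4a2 had 287 to 1125 CPM (median 639) in brain and 2242, 2414, 1309, 1625 and 3092 CPM in stimulated spleen, a log2 fold change of -1.77 (SE 0.32, edgeR adjusted p = 0.0049). Nr4a1 had 422 to 2188 CPM (median 682) in brain, against 2453, 3068, 2077, 2104 and 3522 CPM in stimulated spleen, and brain replicate 8, at 2188 CPM, reached the stimulated range. Its log2 fold change was -1.52 (SE 0.36, edgeR adjusted p = 0.021), and the call was lost without brain replicate 7 or stimulated spleen replicates 37, 39 or 40 (adjusted p of 0.054 to 0.11), or with DESeq2's size factors (-0.94, adjusted p = 0.18). Against unstimulated spleen the 3 genes had log2 fold changes of 7.49 for Nr4a1, 5.78 for Nr4a2 and 6.38 for Nr4a3 in resting brain, and of 9.01, 7.55 and 8.59 in stimulated spleen.

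The zinc finger factors Egr1 to Egr4, immediate early genes downstream of ERK, were each lower. Egr1 had 184 to 1059 CPM (median 427) in resting brain, against 3043, 3452, 2744, 2911 and 3064 CPM in stimulated spleen and 10.3 to 16.8 CPM in unstimulated spleen. Every brain library lay between the spleen groups (log2 fold change -2.65, SE 0.36, edgeR adjusted p = 0.00063). Egr2 and Egr3, which are linked to restraint of T cell responses, lay closer to unstimulated spleen. Egr2 had 0.94 to 94.5 CPM (median 12.3) in brain, 370.1, 526, 426, 369.6 and 736 CPM in stimulated spleen and 2.91 to 6.94 CPM in unstimulated spleen, and its log2 fold change was -3.97 (SE 0.89, edgeR adjusted p = 0.015). Egr3 had 0.107 to 34.2 CPM (median 16.6) in brain and 220.4, 314, 194, 183 and 406 CPM in stimulated spleen, with a log2 fold change of -3.85 (SE 0.80, edgeR adjusted p = 0.01). In 1 fit of all 26 libraries the adjusted p was 0.071 for Egr2 and 0.056 for Egr3. Against unstimulated spleen neither passed the threshold in brain (2.41, adjusted p = 0.3, and 2.77, adjusted p = 0.26). Egr4 had 0 counts in all brain libraries and 2.02, 6.90, 2.07, 1.98 and 1.68 CPM in stimulated spleen, at least 14.7-fold lower in brain when 3 counts per library are taken as the floor, which covers counting error only. Nab2, a corepressor of Egr factors, had 0.483 to 53.5 CPM (median 2.95) in brain, against 24.9, 33.8, 24.4, 24.02 and 42.99 CPM in stimulated spleen, and was undecided.

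Of 16 genes of NF-kB subunits and feedback inhibitors 4 were lower and none was held, beside 2.36% and 3.52% of all genes tested. Tnfaip3, the ubiquitin-editing inhibitor A20 (chr10:19000910-19015657, minus strand), had the smallest difference of the 4, with 1589 to 2333 CPM (median 1743) in resting brain, against 3179, 4560.2, 2966, 3486 and 4367 CPM in stimulated spleen and 82.00 to 98.5 CPM in unstimulated spleen. The brain libraries lay below the lowest stimulated one, and the log2 fold change was -0.97 (SE 0.17, edgeR adjusted p = 0.0045). With DESeq2's size factors Tnfaip3 was at -0.47 and the call was lost (adjusted p = 0.17). Nfkbia, which encodes the inhibitor that NF-kB itself induces (chr12:55489410-55492647, minus strand), had 18.2 to 108 CPM (median 45.8) in brain, 499, 651, 351, 413 and 797 CPM in stimulated spleen and 20.8 to 26.1 CPM in unstimulated spleen. The log2 fold change was -3.35 (SE 0.44, edgeR adjusted p = 0.00049), and it did not differ from unstimulated spleen past the threshold (1.12, adjusted p = 0.4). Nfkbid and Nfkbiz, nuclear members of the same inhibitor family, had log2 fold changes of -3.69 and -2.70 (edgeR adjusted p of 0.0069 and 0.0053), the Nfkbid call being lost with voom (adjusted p = 0.075), and both were above unstimulated spleen (3.15, adjusted p = 0.039, and 2.80, adjusted p = 0.0053). Rel, the NF-kB subunit c-Rel, had 0.0859 to 136 CPM (median 14.1) in brain and 352, 415, 170.3, 242 and 706 CPM in stimulated spleen without overlap. Its adjusted p was 0.18, while without brain replicate 10 the log2 fold change was -4.53 (edgeR adjusted p = 0.037).

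Myc, the growth factor-responsive transcription factor (chr15:61985391-61990374, plus strand), was among the genes farthest below the stimulated level. It had 0.859 to 61.3 CPM (median 26.6) in resting brain, against 649.6, 1005, 401, 429 and 1596 CPM in stimulated spleen and 19.7 to 39.4 CPM in unstimulated spleen. Its log2 fold change was -4.82 (SE 0.74, edgeR adjusted p = 0.002), and against unstimulated spleen it was -0.22 (adjusted p = 0.94). With limma's voom test Myc was at -4.88 with an adjusted p of 0.11. The kinase gene Pim1 had 25.04 to 44.5 CPM (median 37.6) in brain, 289, 391, 164, 199 and 487 CPM in stimulated spleen and 15.4 to 27.1 CPM in unstimulated spleen, and a log2 fold change of -3.09 (SE 0.37, edgeR adjusted p = 0.00025). Gadd45b, a stress-response gene that acts on MAP kinases, had 1.30 to 33.2 CPM (median 19.4) in brain and 239, 382, 214, 211 and 609 CPM in stimulated spleen, a log2 fold change of -4.10 (SE 0.62, edgeR adjusted p = 0.0018). Irf4, a factor of effector differentiation and the 1 lower member of 9 tested NFAT and IRF genes, had 11.7 to 108 CPM (median 35.9) in brain, against 320.3, 467, 204, 243 and 706 CPM in stimulated spleen. Ier5, an immediate early gene, had 22.6 to 71.7 CPM (median 43.96) in brain, against 180.2, 215, 143, 166 and 299 CPM in stimulated spleen. Their log2 fold changes were -2.94 (SE 0.60) for Irf4 and -2.17 (SE 0.39) for Ier5 (edgeR adjusted p of 0.0094 and 0.0054), and the Irf4 call was lost with voom (adjusted p = 0.066). None of Pim1, Gadd45b, Irf4 and Ier5 passed the threshold against unstimulated spleen in brain, with log2 fold changes of 0.88, 2.43, 2.16 and 0.53 (adjusted p of 0.55, 0.18, 0.13 and 0.74).

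Among regulators of cytokine mRNA decay, the held Zfp36l2 stood beside its lower relatives Zfp36 and Zfp36l1. Zfp36, which encodes tristetraprolin, had 24.99 to 189 CPM (median 81.2) in resting brain, against 430.0, 631, 482, 464 and 586 CPM in stimulated spleen and 17.9 to 27.8 CPM in unstimulated spleen (log2 fold change -2.44, SE 0.41, edgeR adjusted p = 0.0033). Zfp36l1 had 30.6 to 216 CPM (median 156) in brain and 479, 565, 374, 440.0 and 646 CPM in stimulated spleen, with a log2 fold change of -1.77 (SE 0.39, edgeR adjusted p = 0.013). Without stimulated spleen replicate 37 or 40 its adjusted p was 0.053 and 0.056. Btg2, an antiproliferative gene of the immediate early list, had 77.3 to 199 CPM (median 114) in brain, against 288, 444, 273, 281 and 449 CPM in stimulated spleen and 37.3 to 43.9 CPM in unstimulated spleen. Brain lay between, at a log2 fold change of -1.43 (SE 0.31, edgeR adjusted p = 0.012, and 0.073 and 0.057 without stimulated spleen replicate 37 and 40).

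Cytokines had the lowest median log2 fold change of the activation lists, -2.46 over 10 tested members, of which Ifng, Tnf and Il21 were lower. Over all genes tested the median was 0.42 and 2.36% were lower. Ifng, which encodes interferon gamma, had 18.8 to 368 CPM (median 196) in resting brain, against 1916, 3224, 2106, 2211 and 3670.1 CPM in stimulated spleen and 12.5 to 23.8 CPM in unstimulated spleen. Brain replicates 7 and 8 lay near the unstimulated spleen libraries and the other 4 at 195 to 368 CPM. The log2 fold change was -3.92 (SE 0.62, edgeR adjusted p = 0.0028), and 3.32 against unstimulated spleen (adjusted p = 0.0058). Tnf had 4.95 to 82.9 CPM (median 40.5) in brain and 380.2, 631, 393, 355 and 989 CPM in stimulated spleen, a log2 fold change of -3.80 (SE 0.55, edgeR adjusted p = 0.0012). Il21, a cytokine that sustains B and T cells, had 0 counts in each brain library, against 45.1, 76.4, 89.4, 136 and 178 CPM in stimulated spleen, at least 526-fold lower by the same floor. CD4 and regulatory T cell markers summed to 1.02 to 26.5 CPM in brain and 51.1 to 134.8 CPM in stimulated spleen, and NK and gamma delta T cell markers to 104.1 to 249.7 CPM in brain and 303.3 to 376.4 CPM in stimulated spleen. Neither list overlapped between the groups. In unstimulated spleen the CD4 and regulatory markers summed to 42.59 to 80.97 CPM, overlapping stimulated spleen. The NK and gamma delta markers summed there to 189.3 to 259.4 CPM, overlapping brain and below stimulated spleen. The part of these markers in the cytokine levels was not tested. Il10, an anti-inflammatory cytokine, had 4.88 CPM in brain replicate 12 and 0 in the other 5, against 47.99, 47.3, 45.2, 83.2 and 67.6 CPM in stimulated spleen. Its adjusted p was 0.057 with edgeR, and 0.00072 without that replicate.

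The inflammatory chemokine gene Ccl3, the 1 lower member of 6 tested chemokines, had 0.143 to 54.2 CPM (median 8.64) in resting brain, against 724, 1126, 953, 1331 and 1594 CPM in stimulated spleen and 6.08 to 23.04 CPM in unstimulated spleen. That is a log2 fold change of -6.22 (SE 1.27, edgeR adjusted p = 0.015, and 0.057 without a filter on low counts). Its neighbour Ccl4 had 0.172 to 78.6 CPM (median 12.6) in brain, against 706, 1149.8, 640.2, 744 and 1676 CPM in stimulated spleen without overlap. Even so its adjusted p was 0.058, and 0.012 to 0.041 without any 1 of brain replicates 7, 8, 10, 11 and 12. Ccl5, which memory CD8 T cells carry at rest, had 478 to 742 CPM (median 496) in brain and 754, 845, 1400.2, 1293 and 612 CPM in stimulated spleen (log2 fold change -0.86, SE 0.24, edgeR adjusted p = 0.056). Without brain replicate 8 the adjusted p was 0.017 and without stimulated spleen replicate 40 it was 0.044. Xcl1, the chemokine for cross-presenting dendritic cells, had 19.4 to 130.2 CPM (median 39.4) in brain and 49.3, 65.96, 44.3, 62.8 and 130.3 CPM in stimulated spleen, and its interval from -1.47 to 0.90 left it undecided.

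The authors' TPM scale corrects for transcript length and so lets genes be ordered within a tissue. On it, resting brain carried Ccl5 at 1064 ± 200.4 TPM, Xcl1 at 119 ± 86.8 TPM, Ifng at 115 ± 84.4 TPM, Ccl4 at 41.7 ± 52.4 TPM, Tnf at 20.3 ± 13.3 TPM and Ccl3 at 18.9 ± 26.03 TPM (mean ± SD, n = 6). The step from Ccl5 to the rest exceeded the spread, while Xcl1 and Ifng, and Ccl4, Tnf and Ccl3, were within 1 SD of each other. In stimulated spleen the levels were 1948 ± 861 TPM for Ccl5, 1799 ± 467 TPM for Ifng, 1384 ± 495 TPM for Ccl4, 1356 ± 357 TPM for Ccl3, 263 ± 107 TPM for Tnf and 135 ± 51.4 TPM for Xcl1 (n = 5). There the first 4 did not differ beyond their spread, and Xcl1 came last. On the same scale brain held Fosl2 at 55.9 ± 16.6 TPM, Dusp5 at 74.8 ± 17.3 TPM and Dusp1 at 80.9 ± 13.97 TPM, below the means of Tnfaip3 at 670.2 ± 318 TPM and Nr4a1 at 273 ± 194 TPM.

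Of 18 activation-induced receptors and ligands 1 was higher, 4 were held and none was lower, beside 1.7%, 3.52% and 2.36% of all genes tested. Il2rb, the beta chain of the receptors for interleukin 2 and interleukin 15, had 388 to 715 CPM (median 542) in resting brain, against 205, 261, 259.7, 218 and 242 CPM in stimulated spleen and 278 to 364 CPM in unstimulated spleen. It was higher by 1.19 (SE 0.23) on the log2 scale (edgeR adjusted p = 0.007). Neither Il2rb nor Eno1, the 2 higher activation genes, passed the threshold where the median gene was set at 0. Cd69, which keeps T cells in tissue by opposing S1pr1 and is an activation marker, had 53.4 to 999 CPM (median 117) in brain, against 1023, 1351, 814, 944 and 2057 CPM in stimulated spleen and 6.74 to 39.1 CPM in unstimulated spleen. Brain replicate 8, at 999 CPM, lay inside the stimulated range and the other 5 at 53.4 to 216 CPM below it. The log2 fold change was -2.23 (SE 0.64, edgeR adjusted p = 0.072), and -3.47 (adjusted p = 0.00041) without that replicate.

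The list of nutrient uptake and glycolysis had 1 higher and 4 held genes of 18 tested, beside 1.7% and 3.52% of all genes tested. Slc3a2, the heavy chain of amino acid transporters, had 105 to 539 CPM (median 208) in resting brain, against 175, 222, 128, 154 and 291 CPM in stimulated spleen and 43.03 to 52.5 CPM in unstimulated spleen, and was undecided (interval -0.47 to 1.18). Eno1, a glycolytic enzyme whose reads may be shared with its copies, had 519 to 2329 CPM (median 938) in brain and 396, 366, 544, 415 and 284 CPM in stimulated spleen (log2 fold change 1.48, SE 0.33, edgeR adjusted p = 0.015). Without stimulated spleen replicate 37 or 40 the adjusted p was 0.054 and 0.056. Of 18 genes of ribosome biogenesis and translation, Eif4a1, an RNA helicase of translation initiation, was the 1 lower member, beside 2.36% of all genes tested. It had 22.6 to 242 CPM (median 119) in brain and 509, 349, 398, 332 and 553 CPM in stimulated spleen (log2 fold change -1.74, SE 0.43, edgeR adjusted p = 0.031). The Eif4a1 call was lost in 6 of the 11 runs without 1 library, at adjusted p of 0.051 to 0.080. The median log2 fold change of that list was 0.22.

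**Figure D3:**
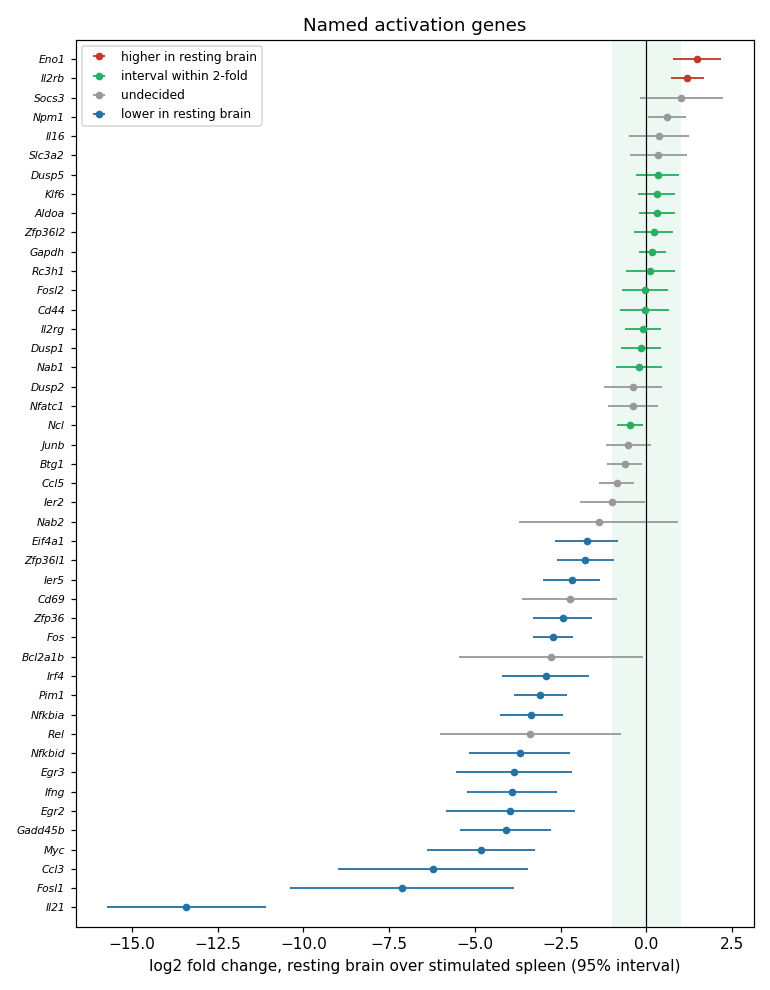
Log2 fold change of resting brain over stimulated spleen with its 95% interval for the activation genes named by rule; colours give the outcome and the shaded band is the 2-fold range. Il21, Fosl1, Ccl3 and Myc lie farthest to the left, where the position of Il21, at 0 in brain, depends on the prior count, and Fosl2, Dusp1, Cd44 and Il2rg lie close to 0 with intervals inside the band.

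Resting brain cells of other mice, which did not enter the tests, gave levels of the same genes. Fosl2 averaged 474 ± 161 CPM in aged male, 205 ± 108 CPM in young male and 282 ± 103 CPM in aged female resting brain (SD, n = 6, 5 and 5). The lowest stimulated spleen library had 260.3 CPM, a level passed by all 6 aged male, 1 young male and 3 aged female brain libraries. Dusp5 averaged 253 ± 58.98 CPM, 176 ± 55.6 CPM and 161 ± 53.7 CPM in the same order of groups. Tnfaip3 averaged 1901 ± 338 CPM, 1669 ± 349 CPM and 1128 ± 241 CPM. For Nr4a1 the means were 924 ± 659.9 CPM, 612 ± 360.4 CPM and 776 ± 379 CPM. Myc averaged 28.8 ± 22.7 CPM, 102 ± 89.4 CPM and 48.2 ± 51.9 CPM, and Pim1 35.8 ± 7.68 CPM, 38.3 ± 35.7 CPM and 21.9 ± 17.1 CPM. No library of these brain groups reached the stimulated spleen range for Myc, Nfkbia, Pim1 or Ifng.

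**Figure D4:**
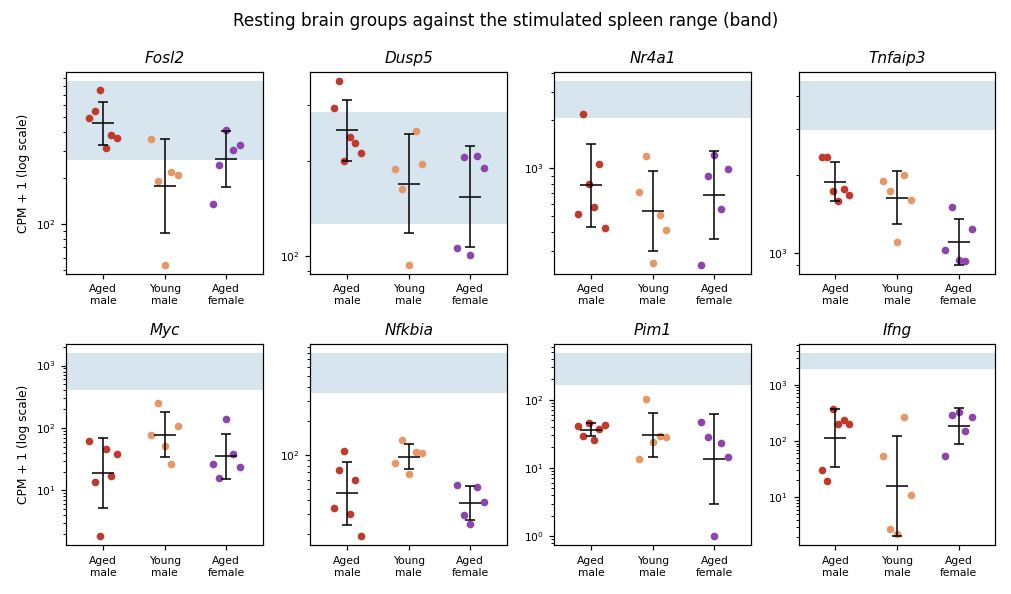
CPM + 1 on a log scale for 8 activation genes in resting brain of aged males (n = 6), young males (n = 5) and aged females (n = 5); points are libraries, bars the geometric mean and 1 SD on the log scale, and the band is the range of the 5 stimulated spleen libraries. Dusp5 reaches the band in each brain group, all Tnfaip3 values and all Nr4a1 values but that of aged male replicate 8 stay below it, and Myc, Nfkbia, Pim1 and Ifng stay far below it.

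The stimulated spleen libraries were not uniform. For Myc, Nr4a3, Rel, Atf3 and Dusp5 replicates 38 and 39 held the lowest values and replicate 40 the highest, as with Myc at 401 and 429 CPM against 1596 CPM. Fos ran differently, with its highest values of 2117 and 1623 CPM in replicates 38 and 39. B cell and antigen presenting cell markers summed to 445.6, 554.7 and 920.0 CPM in stimulated spleen replicates 38, 39 and 40, and their part in these levels was not tested.

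Genes of tissue residency were higher in resting brain in 4 of 16 tested cases, held in 3 and lower in none. Over all genes tested 1.7% were higher, 3.52% held and 2.36% lower. Cdh1, the adhesion molecule E-cadherin, had 116 to 205 CPM (median 162) in resting brain, against 10.4, 6.67, 6.70, 7.75 and 3.82 CPM in stimulated spleen and 5.67 to 16.02 CPM in unstimulated spleen. All brain libraries lay above all spleen libraries, and the log2 fold change was 4.48 (SE 0.46, edgeR adjusted p = 5.9e-05). Itga1, the collagen-binding integrin chain CD49a, had 21.7 to 198 CPM (median 123) in brain and 3.75, 16.5, 6.34, 5.32 and 3.59 CPM in stimulated spleen (log2 fold change 3.99, SE 0.74, edgeR adjusted p = 0.0064). Unstimulated spleen had 15.9 to 129 CPM and did not differ from brain past the threshold (adjusted p = 0.36). Cxcr6, a chemokine receptor of tissue memory cells, had 51.3 to 557 CPM (median 212) in brain and 21.3, 49.7, 42.7, 37.4 and 26.2 CPM in stimulated spleen (log2 fold change 2.76, SE 0.57, edgeR adjusted p = 0.01). Rgs2, a brake on G protein signalling, was above the stimulated level, with 307 to 461 CPM (median 382) in brain, against 129, 133, 107, 136 and 153 CPM in stimulated spleen and 9.55 to 16.8 CPM in unstimulated spleen. Its log2 fold change was 1.52 (SE 0.25, edgeR adjusted p = 0.0027, and 0.053 in the fit of 26 libraries), beside 3.24 for stimulated over unstimulated spleen. Its relative Rgs1 was held, with 72.5 to 582 CPM (median 253) in brain, 320.4, 279.8, 281, 332 and 317 CPM in stimulated spleen and an interval from -0.99 to 0.85, which passed the limit in 9 of the 11 runs without 1 library. Choroid plexus markers, epithelial genes, also moved with the tissue. Their sum was 3.51 to 1573 CPM in brain and 3.94 to 14.9 CPM in stimulated spleen, with Ttr and Enpp2 called higher and Otx2 and Kcnj13 at 0 in brain. The Enpp2 call was lost in 8 of the 11 runs without 1 library. Brain replicate 9 had 3.51 CPM of these markers, Cdh1 at 161 CPM and Itga1 at 35.8 CPM, and the highest sums of astrocyte, neutrophil and monocyte, and microglia markers of the 6 brain libraries (900.1, 478.8 and 489.8 CPM). The part of these markers in the residency genes was not tested.

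Interferon response genes were higher in 6 of 20 tested cases and lower in none, beside 1.7% and 2.36% of all genes tested. Their median log2 fold change was 2.15. Ifit3 had 160.3 to 948 CPM (median 341) in resting brain, against 11.4, 9.34, 18.8, 2.89 and 20.8 CPM in stimulated spleen and 31.3 to 46.02 CPM in unstimulated spleen, a log2 fold change of 5.13 (SE 0.60, edgeR adjusted p = 0.00024). Ifit1, an interferon-induced RNA-binding protein, had a median of 139 CPM and at most 459 CPM in brain, 2.31, 7.79, 10.97, 2.28 and 6.62 CPM in stimulated spleen and 11.2 to 26.4 CPM in unstimulated spleen (log2 fold change 4.79, SE 0.78, edgeR adjusted p = 0.0028). For both genes every brain library lay above every stimulated spleen library. Rtp4, Zbp1 and Usp18 had log2 fold changes of 4.23, 2.63 and 3.59, and the Usp18 call was lost in 9 of the 11 runs without 1 library. Stimulated spleen was itself lower than unstimulated spleen for 5 of the 20, beside 9.19% of the genes tested there. For Ifit3 that log2 fold change was -1.60 (edgeR adjusted p = 0.012). Against unstimulated spleen resting brain had a log2 fold change of 3.52 for Ifit3 (edgeR adjusted p = 0.00016).

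Most cytotoxic genes were undecided, 2 of 14 were higher and none was lower, beside 1.7% and 2.36% of all genes tested. Serpinb9, an inhibitor of granzyme B, had 155 to 561 CPM (median 371) in resting brain, against 112, 118, 122, 115 and 88.4 CPM in stimulated spleen (log2 fold change 1.71, SE 0.34, edgeR adjusted p = 0.0091, and 0.19 in the fit of 26 libraries). Tnfsf10, the death ligand TRAIL, had 46.8 to 253 CPM (median 109) in brain and 10.6, 12.01, 29.7, 28.9 and 4.04 CPM in stimulated spleen (log2 fold change 2.95, SE 0.63, edgeR adjusted p = 0.012). Serpinb6b, a serpin of the same clade as Serpinb9, was held at -0.13 (SE 0.36), and passed the limit in 5 of the 11 runs without 1 library. Inhibitory receptors gave no call among 11 tested. Tox, a factor of exhausted and resident cells, had 111 to 369 CPM (median 274) in brain and 176, 129.9, 256, 230.0 and 81.3 CPM in stimulated spleen. Pdcd1, which encodes PD-1, had 48.7 to 306 CPM (median 140.1) in brain, against 68.5, 68.7, 118, 132 and 127 CPM in stimulated spleen and 9.90 to 47.3 CPM in unstimulated spleen. Cd200r1, the inhibitory receptor for CD200 that the study names, had 0 to 92.4 CPM (median 0.863) in brain, against 2.21, 4.34, 5.24, 3.19 and 0.112 CPM in stimulated spleen. Its interval from -0.70 to 6.56 (edgeR adjusted p = 0.45) allowed a difference in either direction.

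Of 14 heat shock genes 8 were lower, 2 were held and none was higher, beside 2.36%, 3.52% and 1.7% of all genes tested. Hspa8, the constitutive chaperone Hsc70, had 12864 to 16818 CPM (median 15049.8) in resting brain, against 18934, 19450.1, 15313, 15297 and 17257 CPM in stimulated spleen and 4248 to 5542 CPM in unstimulated spleen. Its difference from stimulated spleen was -0.21 (SE 0.11) on the log2 scale, with an interval from -0.44 to 0.02. The inducible Hspa1a, whose reads can be shared with its near-identical copy Hspa1b, had 439 to 1832 CPM (median 1424) in brain, against 6791, 7411, 6333, 5151 and 2343 CPM in stimulated spleen and 8.41 to 131 CPM in unstimulated spleen. Brain lay between these (log2 fold change -2.11, SE 0.32, edgeR adjusted p = 0.0019, lost with voom at 0.055 and in the fit of 26 libraries at 0.11). Dnajb1, a cochaperone of the heat shock response, had 174 to 294 CPM (median 206) in brain, 1461, 1433, 913, 948 and 826 CPM in stimulated spleen and 35.9 to 69.2 CPM in unstimulated spleen (log2 fold change -2.35, SE 0.24, edgeR adjusted p = 5.9e-05). Hspe1, the mitochondrial partner of Hsp60, was held at 0.20. It passed the limit without stimulated spleen replicate 36 or 37 and with DESeq2's size factors. The calls of Hspa5, Hsp90aa1, Hsp90ab1 and Dnaja1 were lost with DESeq2's size factors. The Hspa5 call was kept in 6 of the 11 runs without 1 library. At a minimum log2 fold change of 1 Hspa1a and Dnajb1 alone kept their calls. Of the same list 9 genes were higher in resting brain than in unstimulated spleen, beside 3.34% of the genes tested there.

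**Figure D5:**
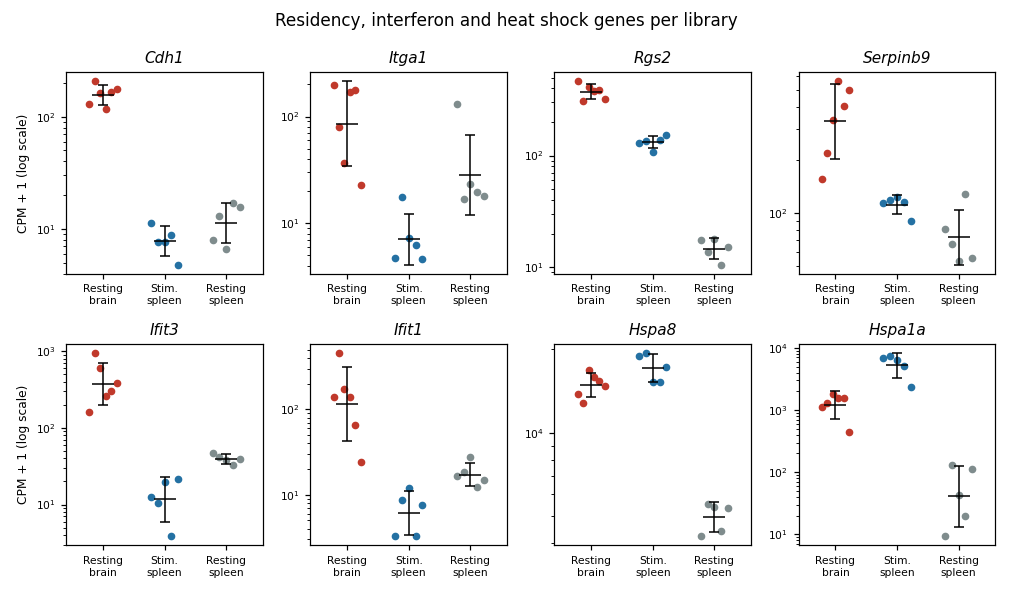
CPM + 1 on a log scale for residency genes (Cdh1, Itga1, Rgs2), the serpin Serpinb9, interferon genes (Ifit3, Ifit1) and chaperones (Hspa8, Hspa1a) in resting brain (n = 6), stimulated spleen (n = 5) and unstimulated spleen (n = 5); points are libraries, bars the geometric mean and 1 SD on the log scale. Cdh1, Rgs2, Serpinb9, Ifit3 and Ifit1 are higher in brain than in stimulated spleen without overlap, Hspa8 overlaps, and Hspa1a lies between the spleen groups.

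Other undecided genes named by rule included Bcl2a1b, Gbp2 and Socs3. Bcl2a1b, an antiapoptotic gene with near-identical copies, had 1.16 to 604 CPM (median 47.1) in resting brain and 994, 1052, 595, 684 and 1519 CPM in stimulated spleen. Gbp2, an interferon-induced GTPase, had 86.9 to 805 CPM (median 230.3) in brain and 114, 66.3, 83.1, 87.4 and 31.5 CPM in stimulated spleen. Their adjusted p-values in the edgeR test were 0.31 and 0.054. Socs3, a brake on cytokine signalling, had 34.8 to 83.9 CPM (median 52.4) in brain, against 29.4, 40.9, 12.1, 15.7 and 45.5 CPM in stimulated spleen and 3.13 to 8.62 CPM in unstimulated spleen.

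Of 17 egress receptors and naive or central memory factors 4 were lower and none was higher, beside 2.36% and 1.7% of all genes tested. Klrg1, a receptor of short-lived circulating effectors, had at most 0.0536 CPM in resting brain, against 2.79, 5.34, 16.1, 11.9 and 2.13 CPM in stimulated spleen (log2 fold change -8.64, SE 1.55, edgeR adjusted p = 0.0053). Slamf6, a marker of stem-like T cells, had 0 to 1.36 CPM (median 0.0215) in brain and 21.2, 31.8, 31.1, 27.8 and 10.8 CPM in stimulated spleen. Its adjusted p was 0.021 with edgeR and 0.057 to 0.065 without stimulated spleen replicate 37, 38 or 39. S1pr5, an egress receptor, and Id3, a factor of naive and memory precursor cells, had at most 0.121 CPM in each brain library and were lower too. All 4 lower members were at or near 0 in brain and passed the count filter through the spleen libraries. With at least 10 counts asked of every library none of the 4 was tested. B cell and antigen presenting cell markers summed to 26.9 to 369.6 CPM in brain and to 445.6 to 920.0 CPM in stimulated spleen, with Cd79a and Ciita at 0 in brain. Their part in these differences was not tested.

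Over all genes, the named extremes on the high side in resting brain were Ttr, a choroid plexus secretory protein, Tjp1, the tight junction protein ZO-1, Ifit3, Ifit1, Cdh1 and the histone gene Hist1h2af. Tjp1 had 11.4 to 234 CPM (median 62.7) in brain, against 0.769, 3.89, 0.122, 1.37 and 1.12 CPM in stimulated spleen (log2 fold change 5.89, SE 1.10, edgeR adjusted p = 0.0066). Ttr stood at 1.93 to 689 CPM (median 90.1) in brain and was found in 1 stimulated spleen library, at 0.152 CPM. On the low side were Il21, Penk, Scd1, Sema7a, Areg and Apol7c. With at least 10 counts asked of every library none of these was tested, nor were Ttr and Tjp1. Penk, the enkephalin precursor, had 0 counts in every brain library, against 72.2, 77.5, 42.7, 45.3 and 62.7 CPM in stimulated spleen, at least 302-fold lower. Areg, a growth factor of tissue repair, had 1.27 CPM in brain replicate 10 and 0 in the other 5, against 45.3, 50.9, 28.9, 40.9 and 67.5 CPM in stimulated spleen. Scd1, a fatty acid desaturase, had 0 counts in brain, against 11.9, 25.7, 18.2, 11.9 and 48.6 CPM in stimulated spleen, at least 117-fold lower. Microglia and macrophage markers summed to 2.62 to 489.8 CPM in brain and 24.7 to 75.7 CPM in stimulated spleen, with Trem2 and Aif1 at 0 in brain and P2ry12 at 214 and 68.8 CPM in brain replicates 9 and 12. Without those replicates, an alternative chosen after seeing the data, 287 genes were higher and 541 lower, and of the activation genes 4 were higher, 33 lower and 14 held.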

How the data were processed

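RNA of sorted CD8 T cells was sequenced in 35 samples of 7 groups, taken from the labels. The authors deposited 1 table of counts and 1 of TPM for the series and, per sample, RSEM tables with expected counts and TPM. The submitters' processing notes name Bowtie2 2.2.0, RSEM 1.2.12 and the mm10 build. Which annotation release was used, and whether strand was, is not given in the sources used here. The deposited counts equalled the rounded expected counts of the authors' tables (largest difference 0.5). RSEM shares reads between near-identical copies, so values of such genes are uncertain, and antisense partners cannot be told apart.

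The deposited counts of 38924 genes were used in edgeR 4.0.16 (R 4.3.3), with filterByExpr (minimum count 10), TMM factors computed over 26 libraries (resting brain and spleen groups) and the robust quasi-likelihood test on the 2 groups compared, with no covariate. The SE was taken as the absolute log2 fold change over the square root of the test's F statistic. Intervals were built from it with the t distribution. CPM were computed on the TMM-scaled library sizes. TPM were used as the authors deposited them. Limits of at least N-fold rest on a floor of 3 counts per library and cover counting error only. The figures add 1 to CPM before the log. Depth is given with the results.

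Named genes were chosen by a rule: in each list, among members with at least 5 CPM on average in either group, up to 2 called higher, up to 2 called lower, up to 2 held with the narrowest interval, and the most abundant undecided one; over all genes, the 6 highest and 6 lowest log2 fold changes among called genes with at least 10 CPM on average and no overlap; and Cd200r1. The members and lists were chosen with earlier results of these data known, and genes named outside the rule (Ccl4, Il10, Xcl1, Pdcd1 and other members of the lists) were chosen after their values were seen. Alternatives were DESeq2 1.42.0 (test and size factors), limma 3.58.1 voom with quality weights, other filters and fits, and leaving out each library. The scripts were tested on simulated data. Promoters are RefSeq windows on GRCm38.p6. Some members of the lists are counted but not reported here by name.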

Additional observations from a re-analysis of the deposited data

Results flagged for a closer look

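Single libraries that stood apart from the rest of their group by Dixon's test on log2(CPM + 1) were looked for in the 76 named genes in both groups. Of 152 groups of values in all, 14 were flagged. For Klrg1, Sema7a, Areg and Ttr all other libraries had 0, where any count is flagged. The usual rate of about 1 in 20 by chance therefore does not apply to this number.

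Brain replicate 12 was lowest for Egr3 at 0.107 CPM (9.88 to 34.2 CPM in the other 5), for Zfp36l1 at 30.6 CPM (108 to 216 CPM) and for Hspa1a at 439 CPM (1116 to 1832 CPM). It was highest for Klrg1 at 0.0536 CPM, where the others had 0. Brain replicate 10 was highest for Fosl1 at 0.442 CPM, for Sema7a at 0.884 CPM and for Areg at 1.27 CPM, all of them genes at or near 0 in the other brain libraries. Brain replicate 11 was lowest for Gadd45b at 1.30 CPM (12.8 to 33.2 CPM) and highest for Slamf6 at 1.36 CPM. Brain replicate 8 was highest for Ccl5 at 742 CPM (478 to 554 CPM) and lowest for the chaperonin gene Hspd1 at 44.3 CPM (149.8 to 262 CPM). Brain replicate 7 was lowest for Srgn, the granule proteoglycan serglycin, at 21.9 CPM (88.6 to 202 CPM). Stimulated spleen replicate 40 was lowest for Serpinb9 at 88.4 CPM (112 to 122 CPM), and stimulated spleen replicate 39 alone had Ttr, at 0.152 CPM.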

How the results depend on the processing

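No paired analysis was possible because replicate numbers are unique to 1 group in the labels. Counts of genes moved with most alternatives. No gene called higher or lower and named here turned round under the alternatives run. For resting brain against stimulated spleen, genes higher were 169 as reported. They were 549 with DESeq2's size factors, 508 with the DESeq2 test, 284 with at least 10 counts in every library, 287 without brain replicates 9 and 12, 67 with the median gene at 0, 39 at a minimum log2 fold change of 1 and 87 to 217 without 1 library. Genes lower were 235 as reported, 404 with the DESeq2 test, 635 with all 26 libraries in 1 fit, 86 with at least 10 counts, 541 without brain replicates 9 and 12, 509 with voom and 200 to 312 without 1 library. For stimulated over unstimulated spleen, the single fit of 26 libraries gave 122 higher and 1 lower, the minimum log2 fold change of 1 gave 275 and 32, DESeq2's size factors gave 671 lower, and runs without 1 library gave 907 to 1300 higher and 476 to 1274 lower. For resting brain over unstimulated spleen, genes higher were 995 with DESeq2's size factors, 589 with the DESeq2 test, 105 at the minimum log2 fold change of 1 and 241 to 499 without 1 library. Genes lower were 624 in the single fit, 25 with at least 10 counts, 1083 with voom, 1292 without a filter and 355 to 487 without 1 library. Of activation genes, 5 were higher with DESeq2's size factors, 4 with the DESeq2 test, 4 without brain replicates 9 and 12, 0 with the median gene at 0 and 0 at the minimum change, and 1 to 3 without 1 library. Lower ones were 43 with the DESeq2 test, 25 with at least 10 counts in every library and 23 to 34 without 1 library. Held ones were 10 with DESeq2's size factors, 12 with voom, 55 at a 4-fold limit and 12 to 19 without 1 library. Of the held activation genes reported, Nab1, Fosl2, Dusp1, Dusp5, Zfp36l2, Tnfrsf1b and Cd28 passed the 2-fold limit with voom. Held genes lie near 0 and did change sign: Fosl2 was at 0.46 with DESeq2's size factors and -0.46 with the median gene at 0, Dusp1 at 0.31 and -0.58, Dusp5 at 0.83 and -0.095, and Klf6 at 0.81 and -0.12. Among undecided genes the sign changed too. With DESeq2's size factors the log2 fold change was 0.10 for Nfatc1, 0.14 for Dusp2, 0.14 for Runx3 and 0.29 for Xcl1. With the median gene at 0 it was -0.053 for Il16 and -0.068 for Slc3a2. It was -0.54 for Cd200r1 with voom and 0.04 for Xcl1 without brain replicates 9 and 12. Without 1 library Slc3a2 had -0.082 (brain replicate 8 left out) to 0.60, and Xcl1 -0.74 to 0.11 (stimulated spleen replicate 40 left out). Calls of named lower genes were lost with DESeq2's size factors for Zfp36l1, Eif4a1, Nr4a1, Jun, Btg2 and Tnfaip3 (adjusted p of 0.064 to 0.18), with voom for Myc, Nfkbid, Irf4, Nr4a3, Btg2, Hspa1a, Hspa1b and Apol7c (0.052 to 0.25), in the single fit for Egr2, Egr3, Eif4a1, Hspa1a and Areg (0.056 to 0.12), and without a filter for Egr2, Ccl3, S1pr5 and Hspa1b (0.057 to 0.070). Those of the chaperone genes Hspa5, Hsp90aa1, Hsp90ab1 and Dnaja1 were also lost with DESeq2's size factors, and those of Hspa5, Hsp90ab1 and Hsph1 with voom. The cause was not tested. Setting the median gene at 0 and leaving out brain replicates 9 and 12 were chosen after seeing the data. For genes with few counts in brain the spread between libraries is wide, and no run at matched depth was made.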
